A study of Mus musculus with 6 samples.

Results

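The collagen and integrin genes of mouse F9 cells were described in 6 RNA sequencing libraries. They were the protein-coding genes whose symbol names a collagen chain (Col, a number, a and a number) or begins with Itga or Itgb, apart from Col4a1 and Col4a2. The rule used names only and no measured value. It found 72 of the 25904 genes in the deposited table, of which 41 were collagen chains and 31 carried an integrin name. Of those 31, 26 were integrin subunits, 17 of them alpha and 9 beta. The other 5 were Itgb1bp1, Itgb1bp2, Itgb1bp3, Itgb3bp and Itgbl1, which match the name pattern and are not subunits.

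F9 is a mouse teratocarcinoma line that turns towards endoderm when given retinoic acid (RA). The study compared 3 lines, which carried a hairpin against GFP (shGFP, the control), against the corepressor Ctbp2 (shCtbp2) or against the retinoid X receptor (shRxr, with no receptor gene named). Every line gave an untreated library (UT) and a library from cells given 1 µM all-trans RA for the last 48 hours, and all libraries came from medium with 8% charcoal-stripped serum on gelatin, which is itself made from collagen. There was 1 library per group (shGFP_UT, shGFP_RA, shCtbp2_UT, shCtbp2_RA, shRxr_UT and shRxr_RA). The labels do not say whether a line is 1 clone, and no separate cultures are named.

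Collagens are secreted or membrane-bound chains that wind together into helical molecules. They form fibrils, basement membrane networks and filaments, and the FACIT collagens sit on the surface of fibrils. Integrins are receptors in the cell membrane, each made of an alpha and a beta chain, that tie matrix proteins such as laminin, fibronectin and collagen to the actin skeleton. F9 cells given RA are known for laying down laminin and collagen IV as they become endoderm.

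The libraries held 9955808 to 13322506 reads assigned to genes, and levels are given as reads per 10000000 counted reads (normalised reads). Ctbp2 was at 1811 and 701 normalised reads in shGFP_UT and shGFP_RA, at 210.1 and 55.4 in the shCtbp2 libraries and at 1632 and 1132 in the shRxr libraries. Rxra was at 520 and 805 in shGFP, at 372 and 821 in shCtbp2 and at 73.7 and 82.4 in shRxr. The labelled cell type was checked against 10 F9 stem cell markers, which were all measured in every library. Their summed level was 55560 to 57200 in the untreated libraries and 23470, 46440 and 39760 in shGFP_RA, shCtbp2_RA and shRxr_RA. In shCtbp2, Pou5f1 alone went from 18520 to 26190 with RA, and the other 9 markers were lower, Zfp42 at 2129 against 8730. The summed level of 10 endoderm markers was 1095 to 1602 untreated and 3544 to 8471 with RA. In bulk RNA, fewer cells of a type and less RNA per cell cannot be told apart.

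Every one of the 72 genes had a read in at least 1 library, but most were low. A mean of at least 20 normalised reads over the libraries was reached by 32 genes, 15 collagens and 17 with an integrin name, and only these were tested. The 40 below it were 26 collagens and 14 with an integrin name. Just below this minimum were Col9a3 at 18.7 and Col1a1 at 16.7, and just above it were Col11a2 at 20.9 and Itga2b at 21.1. The mean was under 1 for 11 genes, among them Col3a1, Col10a1 and Col24a1. Of the 32, 6 had an untreated mean under 20 and passed through their RA libraries (Col16a1, Col4a5, Col11a2, Col23a1, Itga2b and Itga7).

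Per kilobase of the longest transcript, the mean level over the libraries was highest for Itgb1 (963), the beta chain shared by most integrins, and Itga6 (936), a laminin receptor chain. Next on this scale came Itga3 (522), Col18a1 (502), Itga5 (451), Itgb5 (330), Col9a2 (213), Itgb1bp1 (128), Itgb7 (108) and Itga9 (92.8). Among the 41 collagens, which leave out Col4a1 and Col4a2, Col18a1 was the highest, a basement membrane collagen from which endostatin is cut. The classical fibril chains of connective tissue were low in every library. Col1a1 lay between 10.8 and 24.0 normalised reads, Col1a2 between 0.837 and 6.76, and Col3a1 had at most 0.805. Fibroblast markers other than collagens, of which 9 of 10 had a row, summed to 622.8 to 817.7 untreated and 1719 to 2614 with RA. Most of the sum was Fbln1 in every library, and Fap and Postn had no read. Fbln1 and Pdgfrb were higher with RA in each line. Thy1 was lower in each, from 82.96 to 21.77 in shGFP, from 130.7 to 15.84 in shCtbp2 and from 35.15 to 10.04 in shRxr. Untreated, Pdgfrb was below Thy1 in shGFP and shCtbp2, at 28.19 and 28.95. The part of these fibroblast markers in the collagen levels was not tested.

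**Figure D1:**
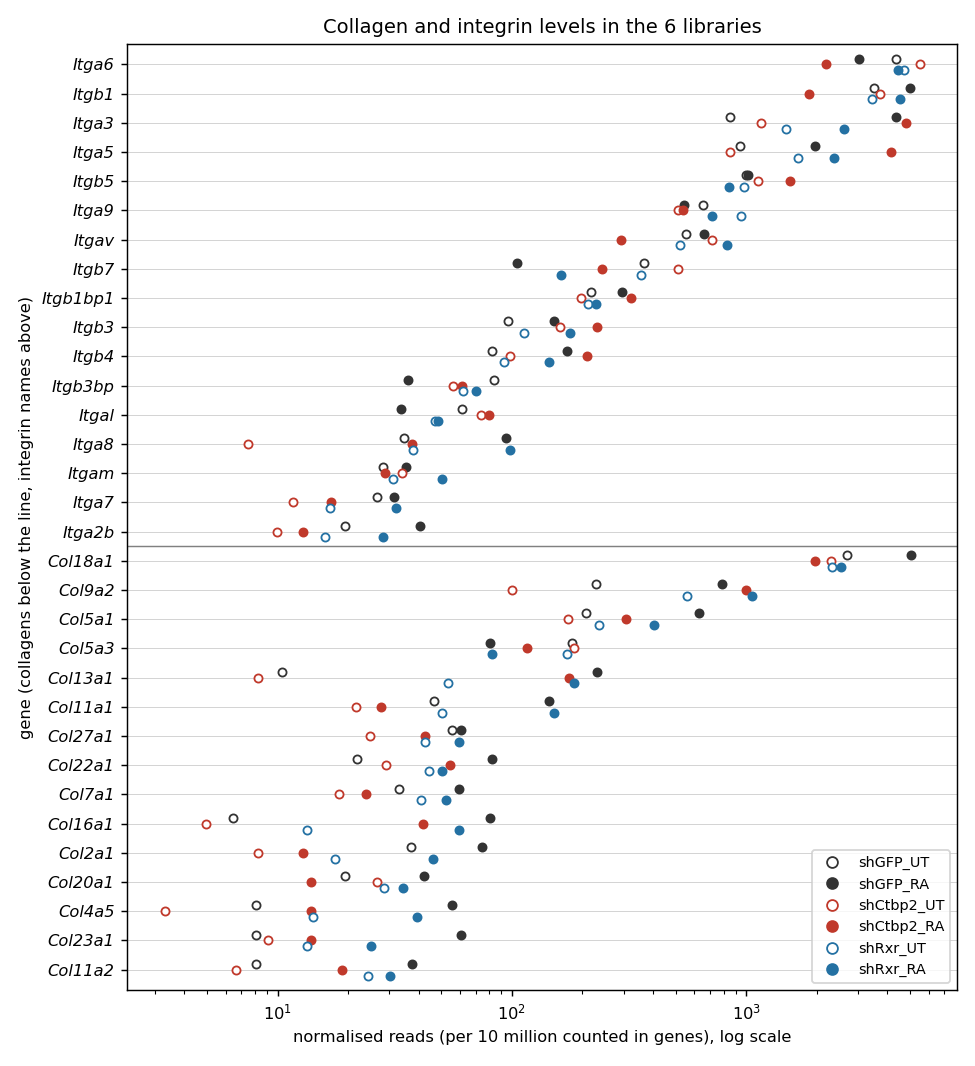
Level of each of the 32 tested genes (vertical axis) in normalised reads on a log scale (horizontal axis), with open circles for untreated and filled circles for RA libraries of the 3 lines. Itga6, Itgb1 and Col18a1 are at 1851 or more in every library, and the filled circles of Col13a1 lie between 175 and 231, above every open one.

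Some chains were measured without the partners they are known to need. Col9a2, a chain of the FACIT collagen IX that decorates cartilage fibrils, reached 1061 normalised reads, whereas its partner Col9a1 had 2.01 in shRxr_RA and no read in the other libraries, where the floor of 3 reads was 2.25 to 2.97. The third chain, Col9a3, lay between 8.91 and 36.0. Col5a1 and Col5a3 were well above the minimum, and Col5a2, with which Col5a1 usually pairs, stayed between 0.837 and 9.76. The beta chain Itgb7 was at 105 to 514, but neither of its known alpha partners passed the minimum, with Itga4 at 0.990 to 16.1 and Itgae at 8.37 to 24.1. Likewise Itgal and Itgam, alpha chains of white blood cells, were at 33.8 to 80.2 and 28.2 to 50.2, and their partner Itgb2 at 0 to 6.44. Blood markers summed to 1233 to 2101 in the libraries, mostly from Laptm5, and Ptprc, which marks white blood cells, was at 0 in 5 of 6 libraries.

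To ask which genes RA moved in all lines, a limma model with line and treatment as terms was fitted over the 6 libraries and all 12332 tested genes, with Benjamini-Hochberg adjustment and a threshold of 0.05. RA raised 9 of the 32 collagen and integrin genes (28.1%) and lowered 2 (6.25%), where 10.8% of all genes tested were raised and 4.63% lowered. The raised genes were Col13a1, Col9a2, Col16a1, Col4a5, Col11a1 and Col5a1 among the collagens and Itga3, Itga8 and Itga5 among the integrins. Itgb7 and Col5a3 were lowered, and 21 genes did not pass. Of the raised genes, Col16a1 and Col4a5 had passed the minimum through their RA libraries. An unadjusted p under 0.05 was reached by 17 of the 32 and by 3819 of all 12332 genes. Over all genes tested, 1327 were raised and 571 lowered, against 1289 and 944 where libraries were scaled by the median of ratios, and 1657 and 1320 after a correction for GC content and length. With that correction 9 of the 32 were raised and 3 lowered. Uncorrected, the median log2 change was 0.81 over the 15 collagens, 0.21 over the 15 integrin subunits and 0.07 over all genes tested. Within shGFP, shCtbp2 and shRxr the collagen median was 1.44, 0.59 and 0.59, and 1.06, 0.26 and 0.46 after the correction. Corrected medians were 0.31, -0.08 and 0.43 for the subunits and 0.03, 0.02 and -0.01 for all genes. Lines stand in as replicates here, so these p-values measure only the spread between these libraries, which includes differences between lines in the response.

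**Figure D2:**
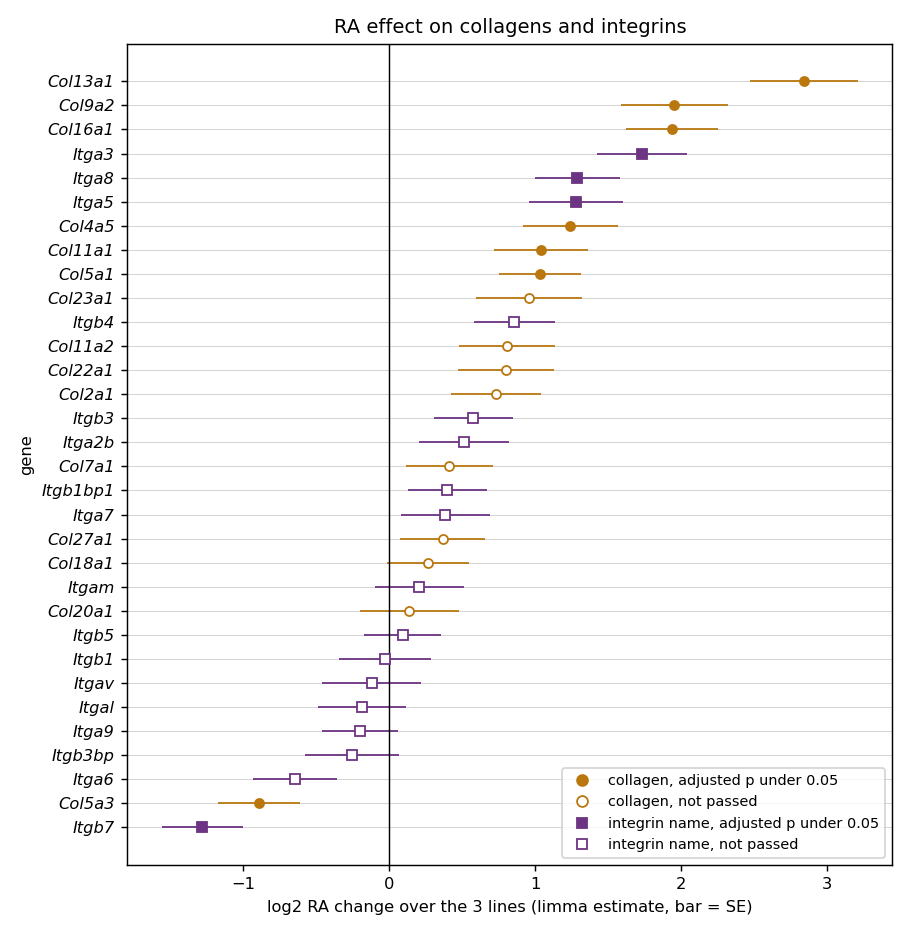
Log2 RA change over the 3 lines (horizontal axis, limma estimate, bar = SE) for the 32 tested genes (vertical axis), circles for collagens and squares for integrin names, filled where the adjusted p was under 0.05. Col13a1 is highest at 2.84 and Itgb7 lowest at -1.28, and 21 of the 32 symbols are open.

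For 5 of these 11 genes the 250 bases before the RefSeq transcription start are shown, so that the sequence can be read beside the response: the collagens with the 3 highest estimates, a raised integrin and the lowered Itgb7. The sequences are from RefSeq on build GRCm38.p6, 5′ to 3′ on the gene's strand. Capitals mark the GC box GGGCGG, the TATA motif TATAAA, the GATA factor sites TGATAA and AGATAA, and the nuclear receptor core site AGGTCA, each on either strand. The windows are chr10:61979109-61979358 on the minus strand for Col13a1, chr4:121039316-121039565 on the plus strand for Col9a2, chr4:130047590-130047839 on the plus strand for Col16a1, chr15:103366792-103367041 on the minus strand for Itga5 and chr15:102231936-102232185 on the minus strand for Itgb7.
Col13a1: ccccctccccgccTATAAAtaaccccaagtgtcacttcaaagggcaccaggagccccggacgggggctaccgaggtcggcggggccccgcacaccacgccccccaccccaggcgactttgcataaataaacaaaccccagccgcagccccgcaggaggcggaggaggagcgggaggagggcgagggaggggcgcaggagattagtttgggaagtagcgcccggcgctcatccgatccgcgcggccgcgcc
Col9a2: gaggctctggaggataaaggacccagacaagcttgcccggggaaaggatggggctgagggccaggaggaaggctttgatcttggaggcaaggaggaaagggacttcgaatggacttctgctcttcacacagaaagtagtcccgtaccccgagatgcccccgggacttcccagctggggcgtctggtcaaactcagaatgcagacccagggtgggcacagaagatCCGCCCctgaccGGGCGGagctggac
Col16a1: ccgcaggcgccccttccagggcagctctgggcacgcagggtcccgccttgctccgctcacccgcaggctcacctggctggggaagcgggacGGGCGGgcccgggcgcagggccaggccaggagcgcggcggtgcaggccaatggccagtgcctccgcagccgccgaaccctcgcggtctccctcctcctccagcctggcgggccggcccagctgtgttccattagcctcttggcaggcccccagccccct
Itga5: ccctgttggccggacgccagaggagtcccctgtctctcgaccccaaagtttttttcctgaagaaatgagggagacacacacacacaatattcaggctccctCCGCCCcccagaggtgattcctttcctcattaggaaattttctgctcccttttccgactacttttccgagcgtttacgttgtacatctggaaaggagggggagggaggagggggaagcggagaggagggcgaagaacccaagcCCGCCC
Itgb7: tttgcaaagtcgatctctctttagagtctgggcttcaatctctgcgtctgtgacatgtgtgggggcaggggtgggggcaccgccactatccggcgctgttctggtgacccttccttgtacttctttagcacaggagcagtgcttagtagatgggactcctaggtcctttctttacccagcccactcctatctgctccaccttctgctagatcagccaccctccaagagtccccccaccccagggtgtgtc

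Of these, Col13a1 held a TATA motif and no GC box, Col9a2 and Itga5 held 2 GC boxes each, Col16a1 held 1, and Itgb7 held none of the motifs. Of the 72 genes 54 matched a RefSeq promoter, with 59 windows. A GC box stood in 8 of the 10 windows of the 9 raised genes and in 29 of the 59 windows, against 32.7% of all 32851 windows of this length. The TATA motif stood in 12.4% of all windows, TGATAA in 7.94%, AGATAA in 9.99% and AGGTCA in 14.0%. The receptor core site was present in 1 window of the raised genes, and its direct repeat with 5 bases between in none of the 59 and in 0.009% of all windows. Windows of the collagen and integrin genes had a median GC content of 57.6%, against 52.4% over all windows. A match of letters is a description of the window, and says nothing of binding.

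Among the transmembrane collagens, Col13a1 (ENSMUSG00000058806, mm9 chromosome 10, 61300984 to 61441856), a collagen of cell adhesion sites and the neuromuscular junction, had 10.5 normalised reads in shGFP_UT and 231 in shGFP_RA, 8.27 and 175 in the shCtbp2 line and 53.6 and 185 in the shRxr line. All RA libraries were above all untreated ones, and shRxr_UT was the highest untreated library. The limma estimate was a log2 change of 2.84 (SE 0.37, adjusted p = 0.00035). Within lines the fold was 22.1 in shGFP (95% counting interval 12.7 to 41.9), 21.2 in shCtbp2 (11.3 to 44.9) and 3.45 in shRxr (2.58 to 4.66). Col23a1, another transmembrane collagen, had 8.05 and 60.8 in shGFP, 9.10 and 13.9 in the shCtbp2 line and 13.4 and 25.1 in the shRxr line. Its 3 RA libraries were above its 3 untreated ones, but shCtbp2_RA (14 reads) and shRxr_UT (16 reads) differed by less than counting error. Its log2 estimate of 0.96 did not pass (adjusted p = 0.091). Intervals of folds are exact binomial intervals of the reads and cover counting error only.

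Of the 9 FACIT collagens 4 were tested and 2 rose, where 10.8% of all genes tested were raised. Of the 2, Col16a1 had passed the minimum through its RA libraries. Col9a2 (ENSMUSG00000028626, mm9 chromosome 4, 120711990 to 120727927) had 228 and 787 normalised reads in shGFP_UT and shGFP_RA, 100.1 and 1001 in the shCtbp2 line and 557 and 1061 in the shRxr line. Here too the RA and untreated ranges were apart, and the lowest untreated level, in shCtbp2, went with the largest rise. The limma log2 estimate was 1.95 (SE 0.37, adjusted p = 0.0032). Col16a1 (ENSMUSG00000040690, mm9 chromosome 4, 129725084 to 129776527), which sits at the edge of small fibrils, had 6.44 and 80.3 in shGFP, 4.96 and 41.6 in the shCtbp2 line and 13.4 and 59.3 in the shRxr line. It was thus under 20 in every untreated library and over 40 in every RA library, with a log2 estimate of 1.94 (SE 0.32, adjusted p = 0.0014). Col22a1, found at tissue junctions, had 21.8, 29.0 and 44.4 in the untreated shGFP, shCtbp2 and shRxr libraries and 81.8, 54.4 and 50.2 with RA, and did not pass (log2 0.80, adjusted p = 0.12). Col20a1 had 19.3, 26.5 and 28.5 untreated and 42.0, 13.9 and 34.2 with RA (log2 0.14, adjusted p = 0.81).

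Of the 11 fibrillar collagens 6 were tested, 2 rose and 1 fell, where 10.8% of all genes tested were raised and 4.63% lowered. Col5a1 (ENSMUSG00000026837, mm9 chromosome 2, 27741945 to 27895034), a chain that starts and limits collagen fibrils, had 208, 174 and 235 normalised reads in the untreated shGFP, shCtbp2 and shRxr libraries and 628, 308 and 403 with RA. The ranges did not overlap, and the log2 estimate was 1.03 (SE 0.28, adjusted p = 0.026). Col11a1, which has the same role in cartilage fibrils, had 46.7, 21.5 and 50.2 untreated and 144, 27.7 and 151 with RA. Its shCtbp2_RA library was below the untreated libraries of the other lines, and the log2 estimate was 1.04 (SE 0.32, adjusted p = 0.045). Col5a3 went the other way, with 180, 184 and 172 untreated and 80.3, 116 and 82.4 with RA, so that every RA library was below every untreated one (log2 -0.89, SE 0.28, adjusted p = 0.046). Col2a1, the main collagen of cartilage, had 37.1, 8.27 and 17.6 untreated and 74.3, 12.9 and 46.2 with RA (log2 0.73, adjusted p = 0.13), and Col11a2 8.05, 6.62 and 24.3 untreated and 37.5, 18.8 and 30.1 with RA (log2 0.81, adjusted p = 0.12). Cartilage markers other than collagens summed to 167.5 and 264.2 in shGFP_UT and shGFP_RA, 125.7 and 226.7 in the shCtbp2 line and 193.3 and 197.9 in the shRxr line. Among them Sox9 went from 4.03 to 98.3, from 4.14 to 26.7 and from 9.21 to 27.1, and Hapln1 had no read. Acan and Comp were also higher with RA in each line. Matn1 was lower in each, from 63.6 to 30.8, from 31.4 to 28.7 and from 61.9 to 47.2. Matn3 and Chad were higher in some lines and lower in others. Their part in the collagen levels was not tested.

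In the basement membrane, Col4a5 (ENSMUSG00000031274, X chromosome of mm9, 137909928 to 138123778), a chain of the kidney and eye basement membranes, had 8.05 and 55.5 normalised reads in shGFP, 3.31 and 13.9 in the shCtbp2 line and 14.2 and 39.2 in the shRxr line. It rose within each line, but shCtbp2_RA was below shRxr_UT. The limma log2 estimate was 1.24 (SE 0.33, adjusted p = 0.022). Col4a6, whose gene starts 1308 bases from Col4a5 and runs the other way, had 1.61 and 12.8 in shGFP, 1.65 and 0 in the shCtbp2 line and 0 and 2.01 in the shRxr line, and was too low to test. Col18a1 (ENSMUSG00000001435, mm9 chromosome 10, 76514923 to 76629293) had 2682 and 5031 in shGFP, 2294 and 1955 in the shCtbp2 line and 2332 and 2541 in the shRxr line, so that only shGFP_RA stood apart. Its log2 estimate over the lines was 0.27 (adjusted p = 0.55), and 8825 bases of the gene overlap Slc19a1, whose mean was 296.5.

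None of the 6 collagen VI genes, chains of beaded filaments, reached the minimum. In shGFP the neighbours Col6a1 and Col6a2, 85161 bases apart on mm9 chromosome 10, went from 1 read to 23 and from 0 reads to 28. The ratio of levels was 21.4 for Col6a1 (95% counting interval 3.48 to 883.0) and at least 8.70-fold for Col6a2, against a floor of 3 reads in shGFP_UT. In normalised reads, Col6a1 had 4.14 and 8.91 in the shCtbp2 line and 2.51 and 9.04 in the shRxr line, and Col6a2 had 0.827 and 4.95 in the shCtbp2 line and 0 and 3.01 in the shRxr line. Col8a1, a network collagen, had no read in any untreated library and 9.01, 2.97 and 3.01 in the RA libraries of shGFP, shCtbp2 and shRxr. With no minimum on the mean, limma passed Col6a1 (log2 0.79, adjusted p = 0.040), Col6a2 (0.83, adjusted p = 0.046) and Col8a1 (0.56, adjusted p = 0.024).

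Of the integrins that bind laminin, Itga3 (ENSMUSG00000001507, mm9 chromosome 11, 94905788 to 94938115), the alpha chain of an epithelial laminin receptor, had 849 and 4347 normalised reads in shGFP_UT and shGFP_RA, 1156 and 4793 in the shCtbp2 line and 1476 and 2610 in the shRxr line. The RA libraries were all above the untreated ones, with the smallest rise in shRxr. Its limma log2 estimate was 1.73 (SE 0.31, adjusted p = 0.0024), and the folds within lines were 5.12 (95% counting interval 4.79 to 5.47), 4.15 (3.91 to 4.40) and 1.77 (1.66 to 1.88). Itga6 (ENSMUSG00000027111, mm9 chromosome 2, 71583673 to 71696473), which pairs with Itgb1 or Itgb4, had 4339 and 3029 in shGFP, 5495 and 2192 in the shCtbp2 line and 4728 and 4424 in the shRxr line. All of its RA values except that of shRxr were below all untreated values, and the log2 estimate of -0.64 did not pass (adjusted p = 0.14). Itga7, a laminin receptor chain of muscle, lay between 11.6 and 32.1 and did not pass (log2 0.38, adjusted p = 0.42).

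Among the integrins that recognise the Arg-Gly-Asp motif, Itga5 (ENSMUSG00000000555, mm9 chromosome 15, 103174720 to 103197194), the fibronectin receptor chain, had 942 and 1966 normalised reads in shGFP, 854 and 4143 in the shCtbp2 line and 1655 and 2375 in the shRxr line. Its RA and untreated ranges did not overlap, and shCtbp2_RA was by far the highest library (log2 1.28, SE 0.32, adjusted p = 0.017). Itga8 (ENSMUSG00000026768, mm9 chromosome 2, 12028259 to 12223547), which binds nephronectin in the developing kidney, had 34.6 and 94.6 in shGFP, 7.44 and 37.6 in the shCtbp2 line and 37.7 and 98.4 in the shRxr line. It rose in each line, and the shCtbp2 line was the lowest at either treatment (log2 1.29, SE 0.29, adjusted p = 0.0098). Itgav, which binds vitronectin with several beta chains, had 554 and 657 in shGFP, 710.5 and 292 in the shCtbp2 line and 521 and 825 in the shRxr line (log2 -0.12, adjusted p = 0.84). Itga2b, the platelet chain, lay between 9.93 and 40.5 (log2 0.51, adjusted p = 0.28).

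None of the 4 alpha chains whose known ligand is collagen itself (Itga1, Itga2, Itga10 and Itga11) reached the minimum. Itga1 had 28.2, 16.5 and 13.4 normalised reads in the untreated shGFP, shCtbp2 and shRxr libraries and 12.8, 5.94 and 15.1 with RA. For Itga11 the values were 4.03, 7.44 and 5.86 untreated and 23.3, 14.9 and 8.04 with RA, a fold of 5.78 in shGFP (95% counting interval 2.23 to 19.0). Itga2 had at most 8.26 and Itga10 at most 11.3. Itga9, a tenascin receptor chain, was measured well, with 656, 513 and 946 untreated and 542, 539 and 714 with RA, and did not pass (log2 -0.20, adjusted p = 0.63).

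Of the 9 beta chains 5 were tested and 1 was lowered, where 4.63% of all genes tested were lowered. Itgb7 (ENSMUSG00000001281, mm9 chromosome 15, 102046426 to 102062366), known from lymphocytes of the gut, had 366 and 105 normalised reads in shGFP, 514 and 242 in the shCtbp2 line and 355 and 163 in the shRxr line. Every RA library was below every untreated one (limma log2 -1.28, SE 0.28, adjusted p = 0.0077). It fell 3.48-fold in shGFP (95% counting interval 2.87 to 4.24), 2.12-fold in shCtbp2 and 2.18-fold in shRxr. Itgb1 (ENSMUSG00000025809, mm9 chromosome 8, 131209554 to 131257100) had 3491 and 5012 in shGFP, 3728 and 1851 in the shCtbp2 line and 3431 and 4537 in the shRxr line, with a log2 estimate over the lines of -0.03 (adjusted p = 0.96). Itgb4, the partner of Itga6 in hemidesmosomes, had 82.2, 98.4 and 92.9 untreated and 171, 209.8 and 144 with RA in shGFP, shCtbp2 and shRxr. The ranges of Itgb4 were apart, and its log2 estimate of 0.86 missed the threshold (adjusted p = 0.054). Itgb5, a partner of Itgav, had 995, 1122 and 976 untreated and 1019, 1540 and 843 with RA (log2 0.09, adjusted p = 0.84), and Itgb3 lay between 95.8 and 231 (log2 0.58, adjusted p = 0.17).

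How far these calls rested on 1 line was checked by leaving out each line or library in turn, with 1 residual degree of freedom, so that a lone library was assumed to vary like the others. For RA, leaving out either library of a line gave the same estimate as leaving out the line, so the 9 fits hold 3 estimates. Col13a1, Col9a2 and Col16a1 kept an adjusted p under 0.05 in each. Without the shGFP line the other 8 calls were lost, with adjusted p = 0.12 for Itga8 (log2 1.32), 0.16 for Itga3 (1.43), 0.18 for Itga5 (1.39), 0.41 for Col4a5 (0.93), 0.44 for Itgb7 (-1.07), 0.58 for Col11a1 (0.84), 0.66 for Col5a3 (-0.80) and 0.70 for Col5a1 (0.77). Without the shCtbp2 line Itga5 (log2 0.79, adjusted p = 0.064), Itga8 (1.21, 0.059), Col4a5 (1.44, 0.066), Col5a1 (1.15, 0.053) and Col5a3 (-1.03, 0.065) did not pass. Without the shRxr line Col11a1 (0.85, adjusted p = 0.075) and Col5a3 (-0.85, 0.075) did not pass, and Col23a1 (1.15, 0.013), Col22a1 (1.13, 0.014), Col11a2 (1.10, 0.019) and Itgb4 (1.00, 0.032) did, all higher with RA.

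The make-up of the integrin RNA was compared as shares of the summed level per kilobase over the 17 alpha and the 9 beta genes. Itga6 held 62.4% of the alpha pool in shGFP_UT and 30.9% in shGFP_RA, 66.5% and 19.6% in the shCtbp2 line and 54.3% and 43.0% in shRxr. Itga3 went from 10.8% to 39.3% in shGFP, from 12.4% to 38.0% in shCtbp2 and from 15.0% to 22.5% in shRxr, and Itga5 from 13.2% to 19.6%, from 10.1% to 36.1% and from 18.6% to 22.6%. With RA, Itga3 thus held a larger share than Itga6 in shGFP and shCtbp2, and a smaller one in shRxr. In the beta pool, Itgb1 held 62.9% to 76.4% in 5 libraries and 43.4% in shCtbp2_RA. There Itgb5 held 41.9%, against 16.4% to 22.0% in the other 5 libraries. With 1 library per group these shifts have no replicate check. The shares also rest on levels not corrected for GC content. In shCtbp2 the RA log2 change was -1.01 for Itgb1 and 0.45 for Itgb5. After the GC and length correction these changes were -0.36 and -0.22.

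**Figure D3:**
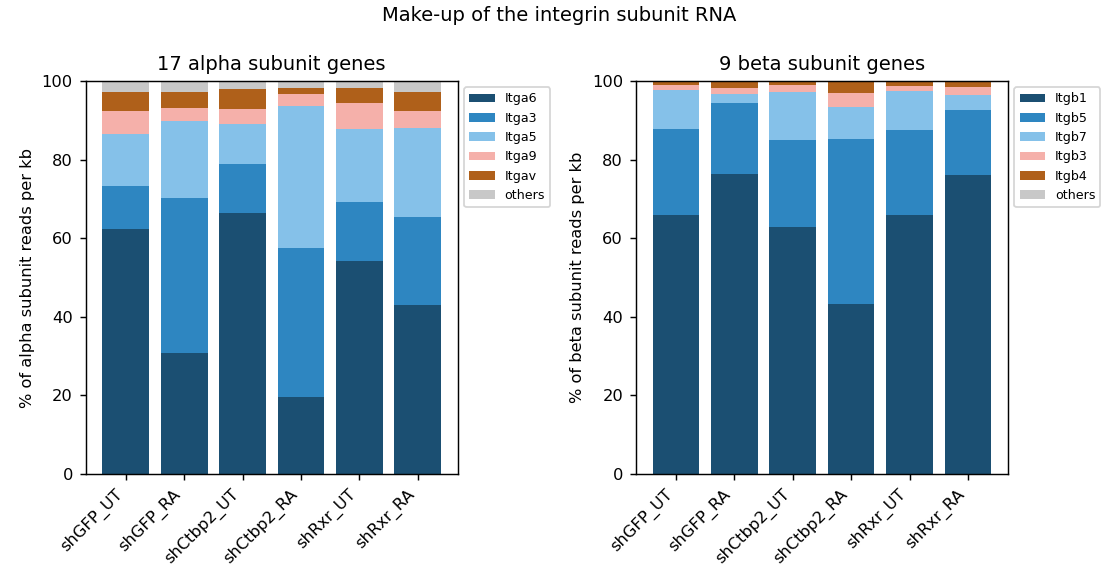
Share of the summed level per kilobase (vertical axis, percent) held by the leading alpha chains and beta chains in each of the 6 libraries (horizontal axis), with the remaining genes of each pool as others. Itga6 shrinks from 62.4% to 30.9% of the alpha pool with RA in shGFP, and Itgb1 is smallest, at 43.4% of the beta pool, in shCtbp2_RA. Levels are not corrected for GC content.

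Over the 41 collagens the summed level per kilobase was 2.22-fold higher with RA in shGFP, 1.60-fold higher in shCtbp2 and 1.42-fold higher in shRxr. Col18a1 held 71.8% of this sum in shGFP_UT and 60.6% in shGFP_RA, 76.3% and 40.6% in the shCtbp2 line and 56.4% and 43.4% in shRxr. Col9a2 held 11.7% and 18.1% in shGFP, 6.37% and 39.8% in the shCtbp2 line and 25.7% and 34.6% in shRxr. In the RA libraries of both knock-down lines, then, Col18a1 and Col9a2 held closer shares than in shGFP_RA. In shRxr they were also closer than in shGFP without RA. With 1 library per group these shares have no replicate check, and the levels are not corrected for GC content. In shCtbp2 the RA log2 change was 3.20 for Col9a2 and -0.23 for Col18a1. After the GC and length correction these changes were 2.26 and -0.97.

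Within single lines, genes were counted where the log2 change on the scale log2(value + 10) was at least 1 in size, without a test. In shGFP, 12 of the 32 genes were higher with RA and 3 lower (13.4% and 7.07% of all genes tested). The 12 were the 9 raised genes with Col23a1, Col22a1 and Col11a2, and the 3 were Itgb7, Col5a3 and Itgb3bp, a centromere protein at 83.8 normalised reads untreated and 36.0 with RA. Among the 12, Col16a1, Col4a5, Col11a2 and Col23a1 had untreated means under 20 and passed the minimum through their RA libraries. None of the 32 passed the opposite way, so the count leans towards higher genes. The same holds where these genes are named for the other lines. With GC content and length corrected, Itga5 (0.61), Col11a2 (0.71) and Itgb3bp (-0.89) were under 1 in size in shGFP. Itgal was then at -1.04. In shCtbp2, 7 were higher and 4 lower (15.1% and 19.3% of all genes). The 7 were Col13a1, Col9a2, Col16a1, Itga3, Itga5, Itga8 and Itgb4, and the 4 were Itgb1, Itgav, Itga6 and Itgb7. After a correction for GC content and length, the log2 change in shCtbp2 was -0.36 for Itgb1 and -0.20 for Itgav, and Col20a1 (-1.09) and Col5a3 (-1.38) were at -1 or less in their place. Among the higher genes Itgb4 was then at 0.36 and Col16a1 at 1.004, and Col22a1 (1.071) and Col4a5 (1.066) reached 1. In shRxr, 6 were higher and 1 lower (5.26% and 1.46% of all genes), namely Col13a1, Col16a1, Itga8, Col4a5, Col11a1 and Col2a1, and Itgb7. With the correction Col4a5 (0.90) and Col2a1 (0.88) were under 1 in shRxr, and Col5a3 was at -1.14.

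**Figure D4:**
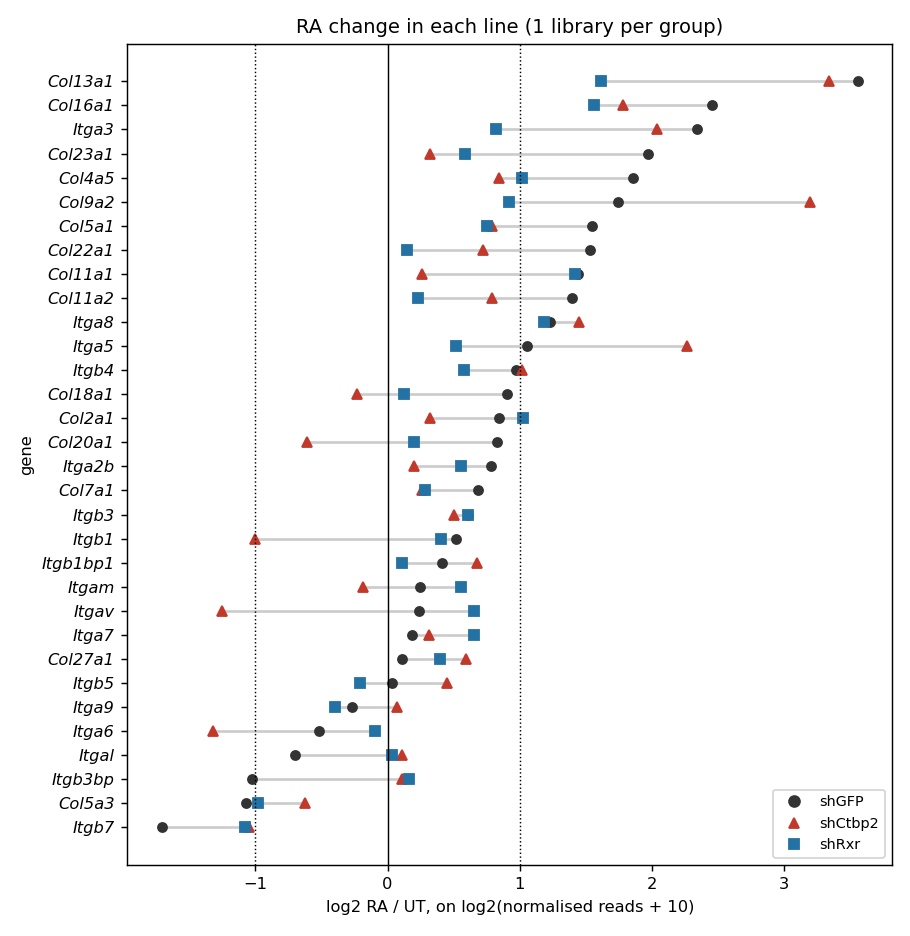
Log2 RA change on the scale log2(normalised reads + 10) (horizontal axis) in shGFP (circles), shCtbp2 (triangles) and shRxr (squares) for the 32 tested genes (vertical axis), with dotted lines at 1 and -1. The triangles of Itgb1 and Itgav lie at -1.01 and -1.26, left of 0, where their circles and squares lie right of it, and the triangles of Col9a2 and Itga5 lie right of their circles.

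The shCtbp2 and shRxr lines were each compared with the same shGFP libraries, so the comparisons are not independent of each other. For the shCtbp2 effect over both treatments, limma called 0 of the 32 genes, against 0.146% of all genes (0.105% raised and 0.0405% lowered). An unadjusted p under 0.05 was reached by 8 of the 32 and by 1091 of all 12332 genes, and voom weights on whole reads also called 0 of the 32. The lowest adjusted p-values were those of Col2a1 (log2 -1.62, adjusted p = 0.12), Col11a1 (-1.44, adjusted p = 0.19) and Itga8 (-1.25, adjusted p = 0.21). Without either shRxr library, or both, limma passed these 3 as lower in shCtbp2. Without both, the adjusted p was 0.0020 for Col2a1, 0.010 for Col11a1 and 0.040 for Itga8. Without shCtbp2_UT, so that its RA library alone stood for the line, it passed Itga5 as higher (log2 1.21, adjusted p = 0.043) and Col2a1, Col11a1, Itgav and Itgb1 (log2 -1.40, adjusted p = 0.042) as lower.

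Untreated, none of the 32 genes was at least 2-fold higher in shCtbp2 than in shGFP on the log2(value + 10) scale and 3 were lower (1.39% and 2.34% of all genes). As ratios of levels, Col2a1 was 4.48-fold lower, Itga8 4.65-fold and Col9a2 2.28-fold. With RA, 3 were higher and 12 lower (3.18% and 14.8% of all genes). The 3 higher were Itga5 (2.11-fold), Itgb7 (2.31-fold) and Itgal (2.37-fold, 33.8 normalised reads in shGFP_RA and 80.2 in shCtbp2_RA). Of the 12 lower, 8 were collagens: Col2a1 (5.78-fold), Col11a1 (5.20), Col23a1 (4.39), Col4a5 (4.01), Col20a1 (3.03), Col18a1 (2.57, 95% counting interval 2.45 to 2.71), Col7a1 (2.50) and Col5a1 (2.04). The others were Itga2b (3.15-fold lower), Itgb1 (2.71, interval 2.57 to 2.85), Itga8 (2.52) and Itgav (2.25). With GC content and length corrected, 6 of the 12 were at least 2-fold lower. The log2 difference was then -0.94 for Col4a5, -0.81 for Itgb1, -0.61 for Col7a1, -0.52 for Col5a1, -0.34 for Itga8 and -0.31 for Itgav. Of the 3 higher genes, Itga5 was then at 0.98 and Itgb7 at 0.81, under 2-fold, and Itgal at 1.225. Itgb3bp reached 1.242 with the correction. Col7a1, which anchors the epidermis, had 33.0, 18.2 and 41.0 untreated in shGFP, shCtbp2 and shRxr and 59.3, 23.8 and 52.2 with RA.

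For the shRxr effect limma called 0 of the 32 genes and 0 at an unadjusted p under 0.05, against 0 raised and 0.00811% lowered of all genes, of which 152 had an unadjusted p under 0.05. Voom weights also called 0 of the 32. Untreated, 2 genes were at least 2-fold higher in shRxr than in shGFP and none lower (0.389% and 0.0649% of all genes). Col13a1 was 5.12-fold higher (95% counting interval 2.79 to 10.1) and Col9a2 2.44-fold (2.12 to 2.82), both genes that RA raised. With RA none was higher and 1 was lower (3.74% and 2.62% of all genes), Col23a1 by 2.42-fold.

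The difference in RA response between a knock-down line and shGFP was taken as the difference of their log2 changes and counted at 1 or more in size, without a test. For shCtbp2, 3 genes had a higher response and 7 a lower one (2.72% and 12.4% of all genes). Col9a2 (1.45), Itga5 (1.21) and Itgb3bp (1.13) were higher. The lower ones were Col23a1 (-1.65), Itgb1 (-1.53), Itgav (-1.50), Col20a1 (-1.44), Col11a1 (-1.18), Col18a1 (-1.14) and Col4a5 (-1.02). For shRxr, 1 gene had a higher response and 5 a lower one (5.6% and 4.47% of all genes). Itgb3bp (1.18) was higher, and Col13a1 (-1.94), Itga3 (-1.52), Col22a1 (-1.38), Col23a1 (-1.38) and Col11a2 (-1.17) were lower. After a correction for GC content and length, Itgb3bp (0.91) and Col11a2 (-0.65) were under 1 in size. Col13a1 (-1.60), Itga3 (-1.175), Col22a1 (-1.405) and Col23a1 (-1.10) were still beyond it. Untreated, Col13a1 and Itga3 were higher in shRxr than in shGFP (53.6 against 10.5 and 1476 against 849 normalised reads). With RA both were lower in shRxr (185 against 231 and 2610 against 4347). Both levels enter the difference in response, and its cause was not tested.

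GC content moved with the levels of all genes. Spearman's rho between the GC content of a gene's longest transcript and its deviation in a library, over 12133 genes, was 0.65 in shCtbp2_RA, 0.25 in shGFP_RA and between -0.44 and -0.40 in the other 4 libraries. GC content was 43.3% to 62.9% over the 32 genes, with a median of 59.4% for collagens, 52.1% for integrin names and 50.1% for all genes. Over the 32 genes rho between GC content and the RA change was 0.25 (shGFP), 0.32 (the shCtbp2 line) and 0.06 (the shRxr line), against 0.37, 0.62 and -0.06 over all genes. Itgb1 (44.9%) and Itgav (43.6%) were among those of lowest GC. After a correction for GC content and length, the difference in RA response between shCtbp2 and shGFP was -0.92 for Itgb1, -0.72 for Itgav, -0.42 for Col11a1 and -0.53 for Col4a5, all under 1 in size. It was -1.27 for Col18a1, -1.56 for Col23a1, -1.48 for Col20a1, 1.03 for Col9a2, 1.05 for Itga5 and 1.73 for Itgb3bp, which stayed at 1 or more in size.

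**Figure D5:**
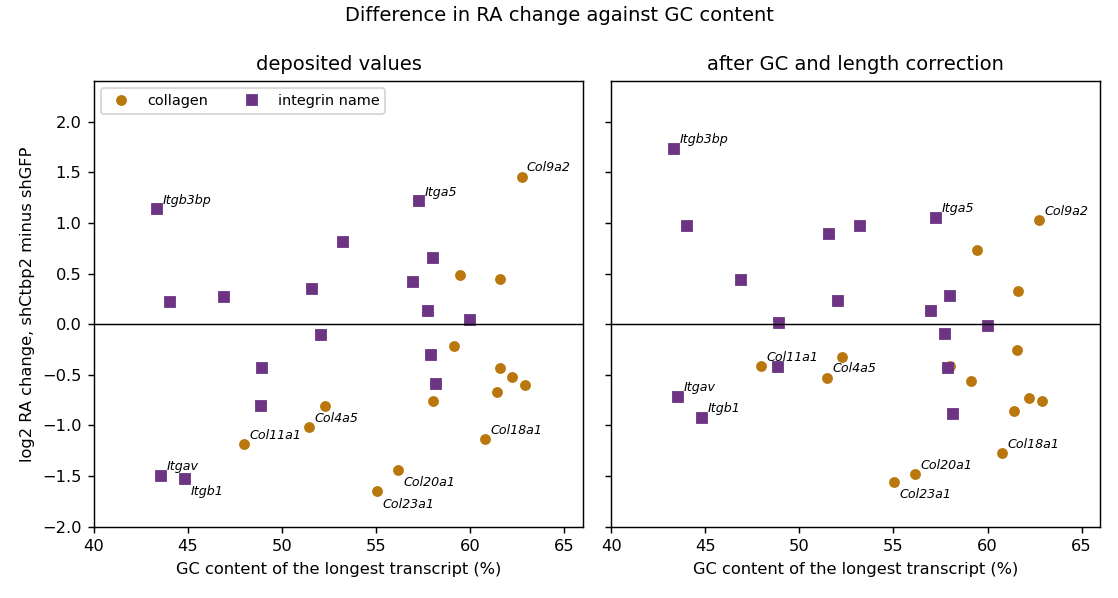
Difference in log2 RA change between shCtbp2 and shGFP (vertical axis) against the GC content of the longest transcript in percent (horizontal axis) for the 32 tested genes, circles for collagens and squares for integrin names, from deposited values (left) and after correction for GC content and length (right). Itgb1 moves from -1.53 to -0.92 and Itgav from -1.50 to -0.72, while Col18a1 and Col23a1 stay below -1.

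Other genes of the matrix and adhesion pathways were taken from lists of known function. Of 28 tested genes that partner or process collagen, RA raised 9 and lowered 1 by limma, where 10.8% of all genes were raised and 4.63% lowered. Of the genes named here Tll1, Lama4 and Lims2 had untreated means under 20 and passed the minimum through their RA libraries. The raised ones included the collagen IV chains Col4a1 (log2 1.52) and Col4a2 (1.99), the chaperone Serpinh1 (2.37), the peroxidase Pxdn (1.91) that crosslinks collagen IV, and the proteases Bmp1 (2.52) and Tll1 (2.84) that trim procollagen, while Pcolce2 fell (-2.10). Of 16 tested integrin ligands 5 rose and none fell. These were the laminin chains Lama1 (1.53), Lama3 (1.60), Lama4 (1.60) and Lamb1 (1.54) and the proteoglycan Hspg2 (0.98), whereas Fn1, the ligand of Itga5, had -0.07 and did not pass. Of 17 tested adaptors and kinases 5 rose (Tln1 1.11, Parva 1.75, Bcar1 1.48, Zyx 1.64 and Lims2 1.63) and Tns3 fell (-1.05). Among 3 tested collagen receptors that are not integrins, the endocytic receptor Mrc2 rose (2.96, SE 0.36, adjusted p = 0.00022), and Ddr1 (0.25) and Ddr2 (-0.64) did not pass. For the shCtbp2 and shRxr effects limma called 0 genes of these 4 lists, with unadjusted p under 0.05 for 4, 3, 4 and 2 of them in shCtbp2 and 1, 2, 0 and 0 in shRxr.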

How the data were processed

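Libraries of the 6 groups were prepared with a TruSeq RNA kit and run on a HiSeq sequencer, per the labels. The submitters' processing notes name TopHat 1.4, HTSeq and the mm9 build. How strand was set, and which annotation was used, is not given in the sources used here, so reads of overlapping genes (Col18a1 and Slc19a1, Itgb1bp1 and Asap2, Itgb3bp and Efcab7) may be shared or lost. The deposited values are log2 values, which the authors made from reads scaled to 10000000 per library, plus 1. Whole reads were recovered from the steps between values (100% whole, tolerance 1e-06) and give the depths.

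Genes with a mean of at least 20 were tested (12332 of 23886 with a read) with limma 3.58.1 (R 4.3.3, trend) on log2(value + 10), with 2 residual and 11.2 prior degrees of freedom. This scale understates changes of low genes. Comparisons of 2 libraries have no test, and genes were counted by size. Floors are 3 reads. GC content and length came from the longest GENCODE M21 transcript on GRCm38, found for 98.4% of tested genes. On simulated counts the limma script was tested before use. Tables, intervals and figures were made in Python 3.11.15 (pandas 2.3.3, numpy 2.4.6, scipy 1.17.1; matplotlib 3.10.9 for plots).

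The genes and lists were chosen with earlier results of these data known. Values in every library are given for tested genes that limma called, that differed 2-fold within a line or treatment, that differed by 1 in response, or that were among the 10 highest. Alternatives were pseudocounts of 1 and 50, no filter and a mean of at least 100, upper quartile and median-of-ratios scaling, the GC and length correction, voom and leaving out libraries or lines. All columns of values matched a library, and the symbols Col26a1 and Itgax had no row.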

Additional observations from a re-analysis of the deposited data

Results flagged for a closer look

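For 3 genes the RA change went in opposite directions in 2 lines, with counting intervals that left out no change in both and a difference of at least 1 on the log2 scale. With 1 library per group the difference was not tested. The RA log2 change of Itgb1 in shCtbp2 minus that in shGFP was -1.527, and that in shRxr minus shCtbp2 was 1.408. For Itgav the same differences were -1.496 and 1.909, and for Col18a1 the difference of shCtbp2 from shGFP was -1.135. The RA change in shCtbp2 was -1.01 for Itgb1, -1.26 for Itgav and -0.23 for Col18a1, and after the GC and length correction -0.36, -0.20 and -0.97. With that correction the differences were -0.92 and 0.63 for Itgb1, -0.72 and 0.66 for Itgav and -1.27 for Col18a1, whose GC contents are 44.9%, 43.6% and 60.8%.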

How the results depend on the processing

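No paired analysis was possible because each group has 1 library and the labels give no replicate numbers, beyond the pairing by line that the RA model itself holds. Upper quartile scaling raised the log2 values of shCtbp2_RA by 0.10 and lowered those of shGFP_RA and shRxr_RA by 0.05. Of all RA calls 69.9% were raised; the split was 1289 raised and 944 lowered (57.7% raised) with median-of-ratios scaling and 1657 and 1320 (55.7%) with the GC and length correction, and 862 were lowered with upper quartile scaling. A mean of at least 100 gave 566 and 246, and among collagens and integrins 5 raised and 1 lowered, with 16 of them tested. Without a filter and with voom 1 was lowered. The call of Col11a1 was lost with a pseudocount of 1 (adjusted p = 0.055) and with no filter (0.14), that of Col5a3 with no filter (0.10), a mean of at least 100 (0.083) and voom (0.050), and that of Itga8 with no filter (0.052). Itgb4 was gained with upper quartile scaling (0.044) and Itga6 with the GC correction (-0.66, adjusted p = 0.039).

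For the shCtbp2 effect, all genes raised and lowered were 13 and 5 as reported, 1 and 3 with a pseudocount of 1, a mean of at least 100 or voom, 0 and 0 with no filter, 46 and 53 with upper quartile scaling (where Col2a1 was the 1 lowered collagen, adjusted p = 0.047), and 35 and 34 with median-of-ratios scaling, while 4 were raised with the GC correction. For shRxr 0 were lowered with no filter.

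Counts by size moved as follows. With a pseudocount of 1, 2 genes were lower with RA in shRxr, 7 were lower in shCtbp2_UT and 1 in shRxr_UT than in shGFP_UT. With a pseudocount of 50, RA gave 7 higher and 1 lower in shGFP, 4 and 2 in the shCtbp2 line, 2 and 0 in the shRxr line. With it 0 were lower in shCtbp2_UT, 1 was higher and 4 lower in shCtbp2_RA, 1 was higher in shRxr_UT and 0 lower in shRxr_RA. Lower responses numbered 3 for shCtbp2, and responses were higher for 0 and lower for 2 genes in shRxr. Upper quartile scaling left 2 lower with RA in shCtbp2 and 2 in shRxr, and median-of-ratios scaling 2 in shRxr. The GC correction gave 2 lower with RA in shRxr, 6 lower in shCtbp2_RA, 0 lower in shRxr_RA, 3 lower responses for shCtbp2 and 0 higher ones for shRxr.

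Leaving out a library or line gave 371 to 1754 raised and 86 to 1499 lowered genes for RA, and 3 to 12 and 0 to 1 among collagens and integrins. The ranges were 0 to 243 and 0 to 1028 for shCtbp2 (0 to 1 and 0 to 4 among collagens and integrins) and 0 to 5 and 0 to 20 for shRxr. The cause of these moves was not tested. Among values of single genes no called value changed sign. Under other processing 953 kept their side or size, 108 moved, 6 lost and 3 gained a call, and with a library or line left out these were 585, 80, 45 and 26. Values without a call did change sign, with the GC correction for example the RA change in shCtbp2 of Itgb5 (0.45 to -0.22) and Col2a1 (0.32 to -0.50). Depth limits the 40 genes under the minimum.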

Other observations

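Col1a1 lies 91431 bases from Itga3 on mm9 chromosome 11. Its levels were 18.5, 10.8 and 16.7 normalised reads in the untreated shGFP, shCtbp2 and shRxr libraries and 24.0, 15.8 and 14.1 with RA, where Itga3 was at 849, 1156 and 1476 untreated and 4347, 4793 and 2610 with RA. Col17a1, the hemidesmosome collagen that sits beside the receptor of Itga6 and Itgb4 in skin, lay between 8.86 and 16.5. Col27a1, a cartilage fibril collagen, lay between 24.8 and 60.8 (limma log2 RA effect 0.37, adjusted p = 0.42), and Itgb1bp1, which binds the tail of Itgb1, between 197.7 and 322.7 (log2 0.40, adjusted p = 0.34).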
